A study of Mus musculus with 4 samples.

Results

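The response of LysM-St18flox bone marrow cells to osteoclast culture was taken from 2 of the 4 arrays of the study, the LysM-St18flox osteoclast array and the LysM-St18flox macrophage array. The value followed is the osteoclast level minus the macrophage level of each gene. Macrophages were mouse marrow cells kept for 4 days in 25 ng/ml M-CSF, in medium with 10% serum. Osteoclasts were such macrophages kept for a further 3 days in 25 ng/ml M-CSF and 50 ng/ml RANKL, so RANKL and time in culture changed together. The name LysM-St18flox denotes, by convention, mice whose loxP-flanked St18 gene is cut by Cre recombinase made from the lysozyme M locus, which is active in macrophages and other myeloid cells. Both groups compared carry these alleles. The other 2 arrays hold macrophages and osteoclasts of wild-type mice made by the same culture, and their difference is given only beside the results. The labels do not say how many mice gave the cells.

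Osteoclasts are multinucleated cells that form when mononuclear precursors of the macrophage lineage fuse, and they are the cells that dissolve bone. M-CSF keeps the precursors alive and dividing, while RANKL acts through its receptor RANK, NF-kappaB, AP-1 and NFATc1 to switch on fusion, acid secretion and proteases. Along this path precursors are known to lose many receptors and sensors of the resident macrophage.

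Each group had 1 array, so no test was possible, no difference has a replicate check, and array and group cannot be told apart. A gene is said here to have risen or fallen where its 2 levels differ by at least 2-fold (1 on the log2 scale), which is a criterion of size. All levels are log2 signals relative to the 75th percentile of the array, and differences are log2 values except where given as a fold. A level is compared between arrays for the same probe and never between genes. On the macrophage and osteoclast arrays 63.2% and 61.7% of spots were well above background and no spot was saturated. The lowest levels well above background were -5.56 and -5.50. Spots of the same probe within an array had a median SD of 0.033 and 0.031, which puts the SD of a difference from this source alone at 0.045. That value leaves out the spread between cultures and arrays, which was not measured. Where a gene was above background on 1 array alone, the difference is a bound and is given as "at least". In RNA from whole cultures, fewer cells of a type and less RNA per cell cannot be told apart.

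Of 15576 genes with a difference, 1702 (10.9%) rose and 1905 (12.2%) fell, 23.2% in all, and the counts of gene lists given here stand against these shares. The large differences lay mostly on the upward side. At least 4-fold, 562 genes rose and 579 fell, but at least 8-fold the counts were 287 and 183, at least 32-fold 90 and 13, and at least 128-fold 27 and 1. The median over all genes was -0.02. With each array centred on its median instead, the median over all genes was 0.15 and the split was 2207 higher and 1522 lower, so the balance of the 2-fold counts depends on the scaling. Of the changed genes, 300 that rose were above background in osteoclasts alone and 223 that fell in macrophages alone. In the wild type 840 genes rose (5.7%) and 1078 fell (7.32%), 13% of 14734.

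**Figure D1:**
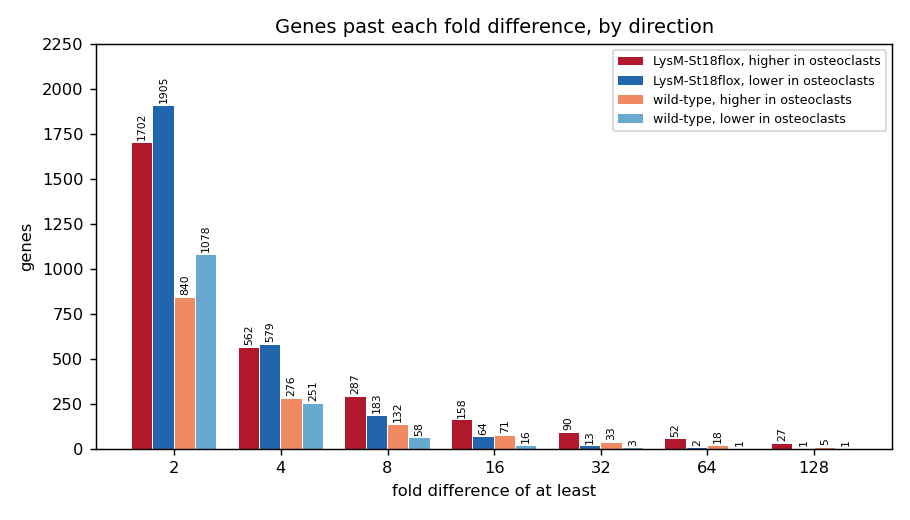
Number of genes (vertical axis) at least 2, 4, 8, 16, 32, 64 and 128-fold higher or lower in osteoclasts than in macrophages, for the LysM-St18flox arrays (dark bars) and the wild-type arrays (pale bars). From 8-fold upwards more genes were higher than lower in LysM-St18flox, with 287 against 183 at 8-fold and 90 against 13 at 32-fold.

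The labels were checked on marker genes. All 10 osteoclast markers rose, and their summed signal, in units of the 75th percentile, went from 11.1 in macrophages to 987 in osteoclasts. Of 12 macrophage markers 11 fell, with a summed signal of 928 and 331, and Csf1r, the M-CSF receptor, was the exception at -0.39. Macrophage markers were thus still well above background in the osteoclast culture. Among markers of other marrow cells, 6 of 13 measured neutrophil markers fell (summed signal 149 and 112), and 2 of 4 measured megakaryocyte markers fell (210 and 14.7), Pf4 and Ppbp, which are also chemokine genes. Sums for B cells (2.97 and 1.25), erythroid cells (0.913 and 0.467), T and NK cells (3.80 and 3.28), stroma (1.37 and 1.32), basophils and mast cells (0.307 and 0.476) and endothelium (6.86 and 5.77) were at most 6.86. Each of these lists was above background in part. On the macrophage and osteoclast arrays these were 5 and 5 of 11 B cell markers, 6 and 5 of 11 T and NK cell markers, 4 and 5 of 9 erythroid markers, 2 and 4 of 9 basophil and mast cell markers, 6 and 5 of 12 stromal markers and 4 and 3 of 7 endothelial markers. Among defining genes, Cd3e (-0.37 and -0.39), Hba-a1 (-2.83 and -3.13) and the B cell receptor chain gene Cd79b (0.45 and -2.84) were above background on both arrays, and Cd79a, Cd3g, Cd8a, Hbb-b1, Cpa3, Col3a1, Pdgfra and Tek on neither. Dendritic cell markers summed to 103 and 107, mostly from Siglech (6.66 and 6.67). The median levels of that list were -3.81 and -4.04, and of 8 measured members 1 rose and 2 fell. In the neutrophil list the highest levels were 6.75 and 6.67, against medians of -0.94 and -1.94. Both sums thus rest largely on the brightest members and do not measure a share of cells. The part of these cells in the differences was not tested.

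St18, the targeted gene, codes for a zinc finger transcription factor. Its level was -1.52 in the macrophages and 1.12 in the osteoclasts, and so it was 6.23-fold higher in osteoclasts (2.64). A second, dim probe was above background in osteoclasts alone, at a difference of at least 0.96. The sources used here do not place these probes relative to the loxP sites, so the signal does not check the deletion. In the wild type the difference was 1.26. Lyz2, the lysozyme gene from whose locus the Cre is made, went the other way, from 6.31 in macrophages to 4.44 in osteoclasts (-1.87, and -0.89 in the wild type).

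**Figure D2:**
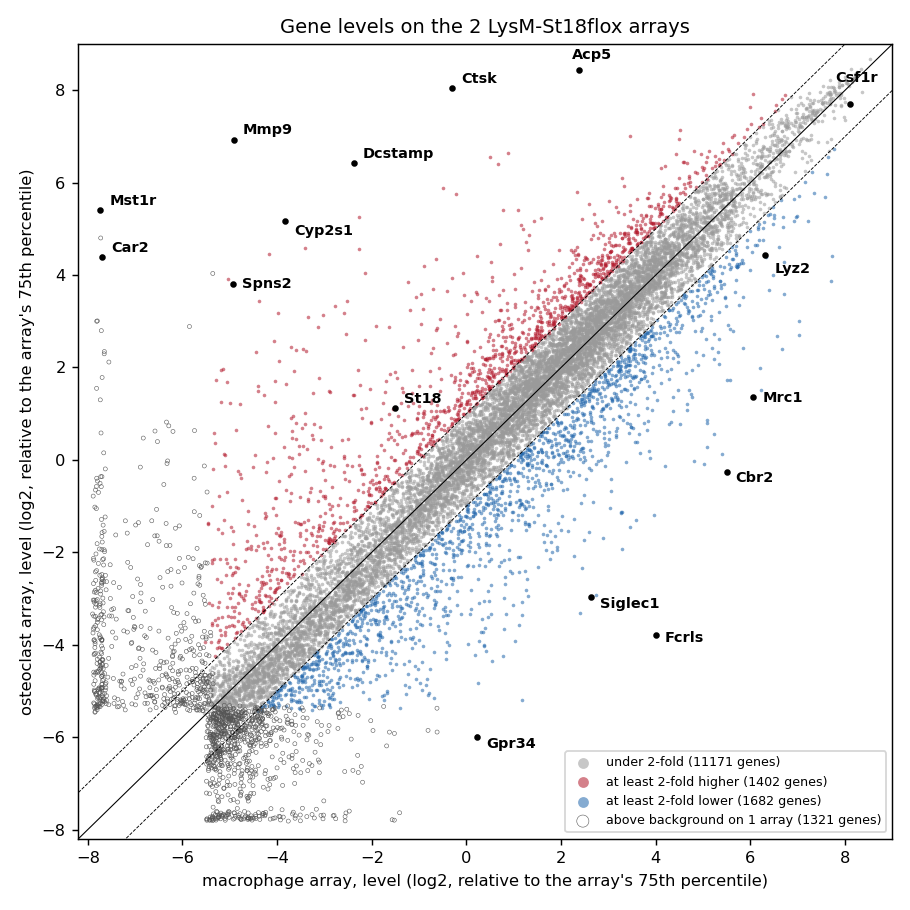
Level of each gene on the macrophage array (horizontal) and the osteoclast array (vertical), both log2 relative to the array's 75th percentile, with lines at equality and at 2-fold. Filled points are above background on both arrays, open circles on 1 array alone, and 16 genes are named. St18 lies above the upper 2-fold line, and Lyz2 below the lower.

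The 20 largest measured rises included genes of bone resorption and cell fusion, transporters and signalling genes. Mmp9, a gelatinase secreted by osteoclasts, had the largest measured difference of all genes, from -4.92 in macrophages to 6.93 in osteoclasts (11.85). Cyp2s1, a cytochrome P450 enzyme, went from -3.83 to 5.17 (8.996). Akap6, a scaffold that anchors protein kinase A, went from -5.04 to 3.92 (8.95). Next came Dcstamp, Spns2, Scin, Ctsk, Akr1c18, Sphk1 and Ocstamp, which are described with their groups. Plxna4, a semaphorin receptor, followed at 7.16, from -3.97 to 3.19.

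Transporters, a channel and regulators of signalling made up much of the other 9 of the 20 highest. Slc6a12, a transporter of betaine and GABA, went from -5.20 to 1.94 (7.14), and Slc6a4, the serotonin transporter, from -3.36 to 3.09 (6.45). Slc12a5, a potassium and chloride cotransporter best known from neurons, went from -5.19 to 1.26 (6.45). Rgs16, which switches off G protein signals, went from -5.15 to 1.96 (7.11). Msln, which codes for mesothelin, Chpf, which lengthens chondroitin chains, the zinc finger gene Zfp462 and P2rx5, an ATP-gated channel, lay at 7.02, 6.80, 6.74 and 6.64. Kbtbd11 was at 6.82 with its brighter probe, and a second dim probe gave at least 0.40. For 8 of these 20 genes, Mmp9, Akap6, Spns2, Slc6a12, Rgs16, Msln, Zfp462 and Slc12a5, the macrophage level lay within 1 of the lowest level above background, so the sizes of their differences are uncertain.

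**Figure D3:**
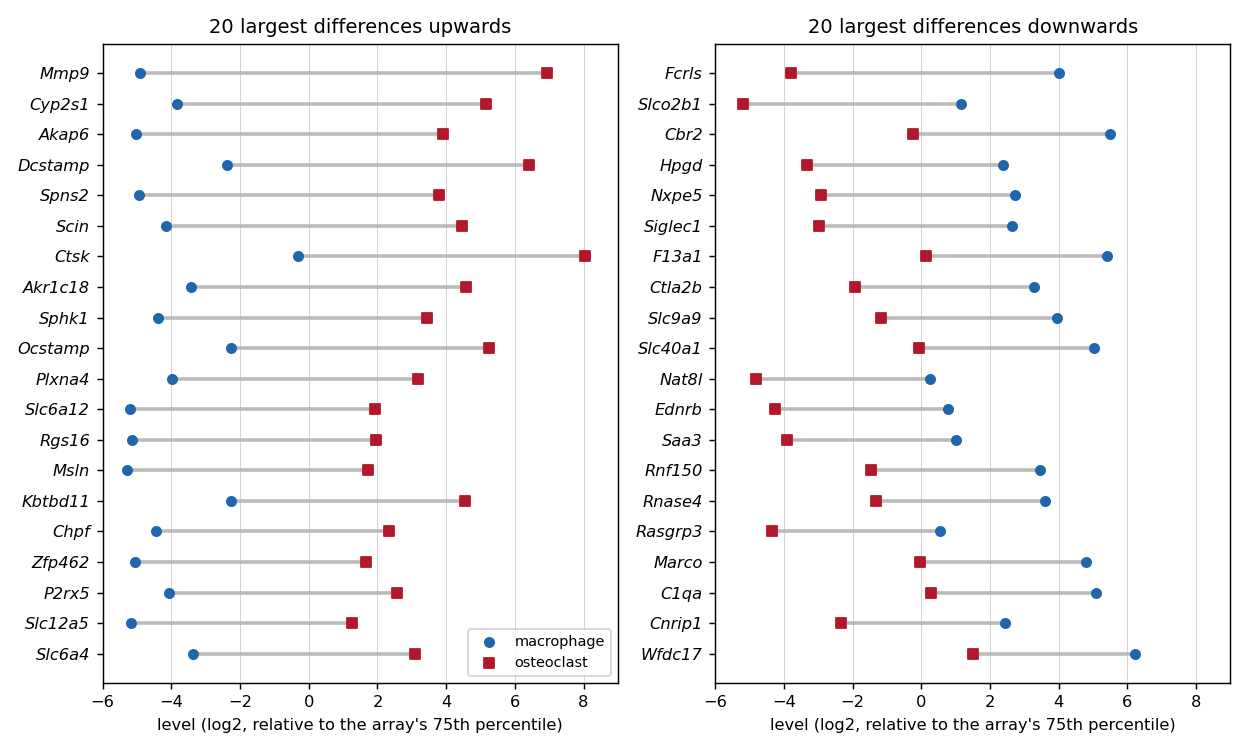
Levels in macrophages (circles) and osteoclasts (squares), log2 relative to the array's 75th percentile, of the 20 genes with the largest differences upwards (left) and downwards (right) among those above background on both arrays. Mmp9 spans -4.92 to 6.93, and Fcrls spans 4.00 to -3.79.

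The 10 largest bounds upwards were of genes above background in osteoclasts alone. Mst1r, the receptor tyrosine kinase RON, had a level of 5.40 in osteoclasts, a difference of at least 10.97. Rufy4, a regulator of autophagosomes and vesicle positioning, was at 4.80 and rose by at least 10.37. Car2, the carbonic anhydrase that makes protons for acid secretion, was at 4.39 and rose by at least 9.96. Cd200, a surface ligand that restrains myeloid cells, was at 4.03 and rose by at least 9.39. These were followed by Calcr, the calcitonin receptor (at least 8.57), 1700034G24Rik (8.56), the tetraspanin Tspan7 (8.45), Serpind1, which codes for heparin cofactor II (8.36), the thrombin receptor F2r (7.91) and Sema7a, a membrane-bound semaphorin (7.86). None of the 10 was well above background on the macrophage array.

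The 20 largest measured falls were of mixed kinds, receptors, transporters, enzymes and secreted proteins among them. Fcrls, an Fc receptor-like gene of microglia and resident macrophages, went from 4.00 to -3.79 (-7.80). Slco2b1, an organic anion transporter, went from 1.16 to -5.19 (-6.35), close to the lowest level above background in osteoclasts. Cbr2, a carbonyl reductase, went from 5.50 to -0.25 (-5.75). Hpgd, which breaks down prostaglandins, was lower by 5.71 on the log2 scale, at 2.39 and -3.32. Nxpe5 (-5.66), Siglec1 (-5.61), F13a1 (-5.26), Ctla2b (-5.21), Slc9a9, a sodium and proton exchanger of endosomes (-5.14), and Slc40a1, the iron exporter ferroportin (-5.10), followed. Nat8l, which makes N-acetylaspartate (-5.06, with the osteoclast level also within 1 of the lowest above background), the endothelin receptor Ednrb (-5.03), the acute-phase gene Saa3 (-4.93), Rnf150 (-4.92), the ribonuclease Rnase4 (-4.90), Rasgrp3, an activator of Ras (-4.88), Marco (-4.84), C1qa (-4.82), Cnrip1 (-4.77) and Wfdc17 (-4.71) completed the 20.

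Among genes above background in macrophages alone, Gpr34, a receptor for lysophosphatidylserine, had a level of 0.23 there and fell by at least 5.73 on the log2 scale. Cd163, the scavenger receptor for haemoglobin, was at -0.62 and fell by at least 4.88. Stat4, a transcription factor of interleukin-12 signalling (-4.75), Rtn4rl1 (-4.69), Abcd2, a peroxisomal transporter (-4.09), Fam167b (-3.98), Samd4 (-3.98), Hoxc4 (-3.93), the RNA sensor Tlr8 (-3.87) and Icosl, a costimulatory ligand (-3.81), had the next bounds. Fam167b was at -0.69 in the wild type and Stat4 at -3.53. The 6 others with a wild-type difference had bounds there, from -2.01 for Abcd2 to -3.93 for Cd163.

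Of 18 genes for proteases, acid secretion and their anchoring, 16 rose and none fell (median 4.68). Ctsk, the protease that cleaves bone collagen, went from -0.30 in macrophages to 8.04 in osteoclasts (8.34). Acp5, an acid phosphatase by which osteoclasts are often stained, was already above background in macrophages at 2.37 and reached 8.44 (6.07). Slc9b2, a sodium and proton exchanger of osteoclasts, went from -0.23 to 5.75 (5.98). Mmp14, a membrane-bound collagenase, went from -4.04 to 1.71 (5.76). Members with smaller differences were well above background in macrophages already. Clcn7, the chloride and proton exchanger of the ruffled border, went from 5.05 to 6.46 (1.40), and Tcirg1, the osteoclast proton pump subunit, from 6.54 to 7.67 (1.14). Ostm1, the partner of Clcn7, was at 0.51, and Plekhm1, needed for lysosome trafficking to the ruffled border, at -0.22. The median was 2.45 with the authors' values, which leave out dim genes such as Car2 and Calcr.

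Within larger protein families the rise was selective. Of 14 cathepsins, Ctsk alone rose, while the other members ran from 0.31 for Ctsa to -1.90 for Ctsc, which activates serine proteases of myeloid cells. Ctsh (5.62 in macrophages and 4.35 in osteoclasts, -1.27) and Ctso (-0.91 and -2.44, -1.53) also fell. Among 13 measured matrix metalloproteinases and inhibitors, Mmp9, Mmp14 and, as a bound of 1.67, Mmp10 rose. Mmp8, a collagenase also made by neutrophils, fell from 4.66 to 1.20 (-3.46), and Mmp13 fell from 1.32 to -1.42 (-2.75). The inhibitor Timp2 was at -0.38.

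The V-ATPase, which pumps protons into lysosomes and into the resorption space, moved upwards more broadly, with some subunits apart. Of 19 measured subunits and accessory proteins 17 lay above 0, 10 rose and 1 fell, with a median of 1.03. Atp6v0d2, the form of subunit d made by osteoclasts, went from -0.49 to 5.88 (6.38), whereas its common form Atp6v0d1 was at 4.88 and 4.99 (0.11). Atp6v1d went from 4.60 to 6.46 (1.85), Atp6v1b2 from 5.98 to 7.63 (1.65) and Atp6v1c1 from 3.40 to 4.87 (1.47). Of the a subunits, which place the pump, Tcirg1 rose as given above and Atp6v0a1 fell from 5.48 to 3.32 (-2.16), while Atp6v0a2 was at 0.24. Most lysosomal enzymes did not follow the pump. Of 32 hydrolases and membrane proteins of lysosomes 3 rose and 8 fell, with a median of -0.23. The sulfatase Arsb (-0.75 and 2.32, a difference of 3.06) and the sphingomyelinase Smpd1 (1.42) rose, and Galc (-2.06), the endopeptidase Lgmn (7.22 and 5.17, -2.05) and the acid lipase Lipa (-1.47) fell.

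**Figure D4:**
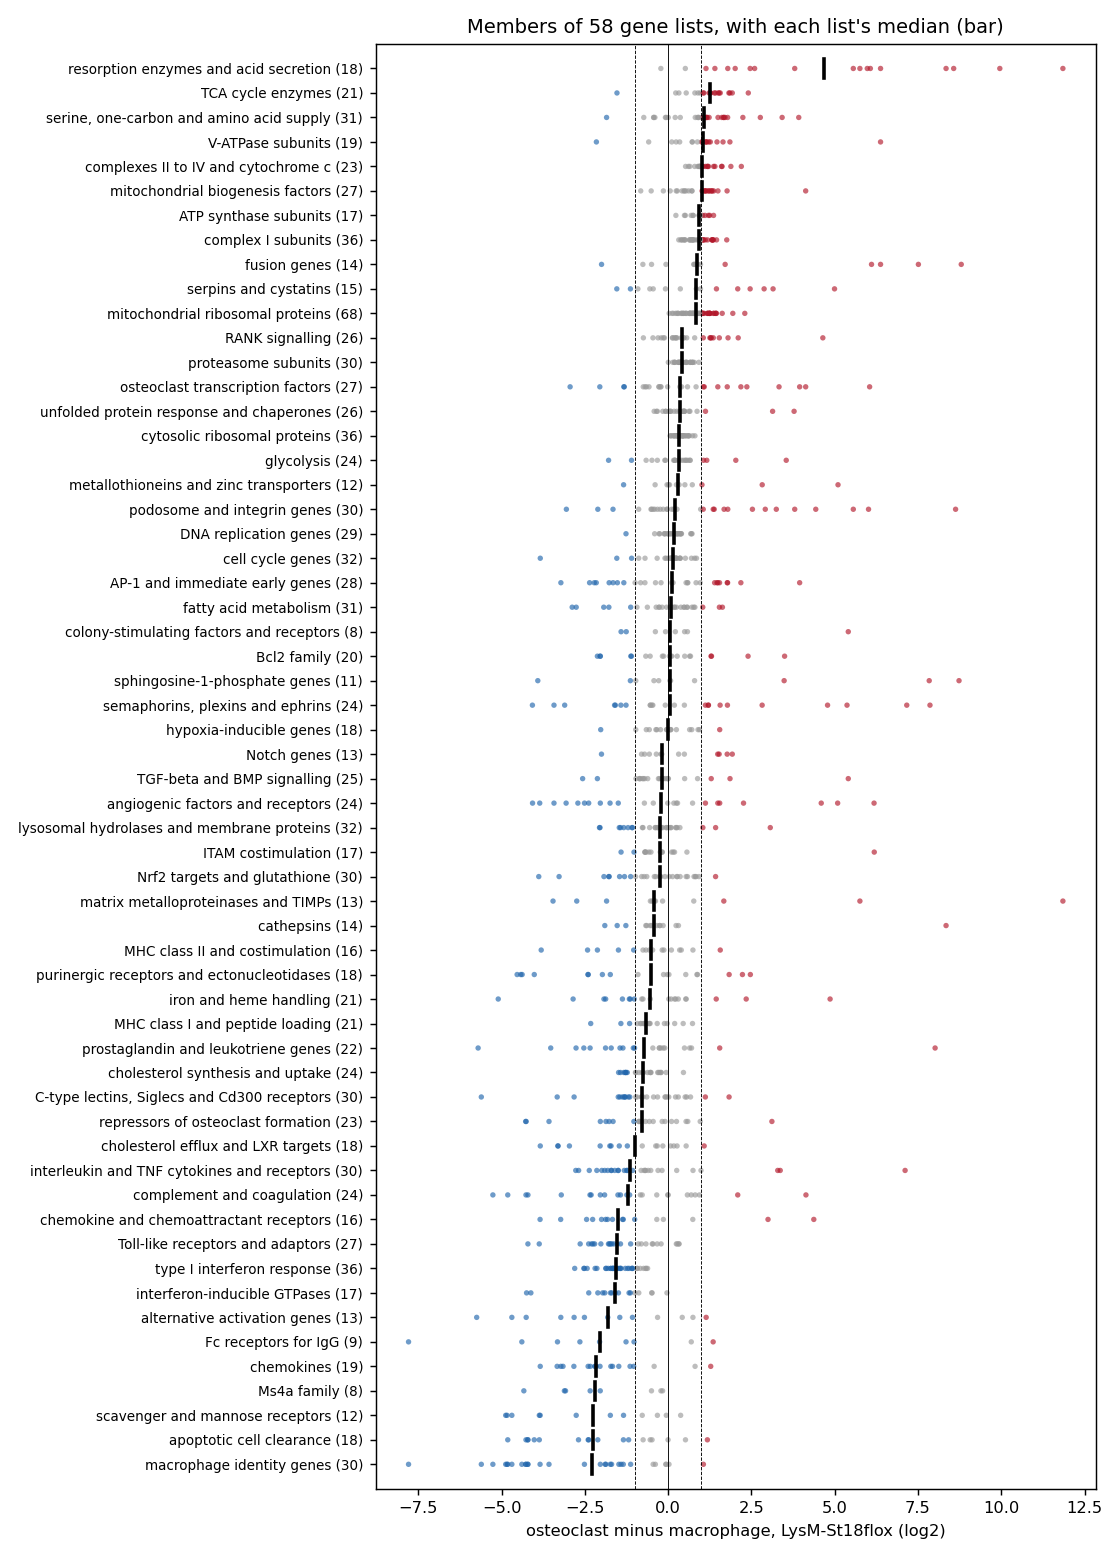
Difference between osteoclasts and macrophages (log2, horizontal) for each measured member of 58 gene lists, ordered by median, with the number measured in brackets. Points past 2-fold are coloured, bars mark medians and dashed lines mark 2-fold. The resorption list stands highest at a median of 4.68 and macrophage identity genes lowest at -2.28, close to the clearance and scavenger lists at -2.25 each.

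Fusion and attachment genes rose in part. Dcstamp, a membrane protein needed for fusion of osteoclast precursors, went from -2.38 to 6.42 (8.80), and its relative Ocstamp from -2.27 to 5.25 (7.51). Pip5k1b, a lipid kinase, went from -3.96 to 2.14 (6.11). Tetraspanins linked to fusion differed in direction, with Cd9 at 0.81 and Cd81 falling from 6.60 to 4.60 (-2.001). In all, 5 of 14 measured fusion genes rose and 1 fell, with a median of 0.85. Of 30 measured podosome and integrin genes 13 rose and 3 fell, with a median of 0.21. Scin, an actin-severing protein, went from -4.17 to 4.46 (8.63), and Rhou, a small GTPase of adhesion sites, from -4.42 to 1.60 (6.01). The tyrosine kinase Src, needed for the ruffled border, went from -3.63 to 1.92 (5.56) with its brighter probe, and a second probe gave 2.55. Cttn, the actin-binding protein cortactin, was at 4.43, with 1.56 and at least 2.16 from its other probes. The vitronectin receptor chain Itgb3 rose by 3.80 and its partner Itgav by 1.79, while Itgb5, another partner of Itgav, fell from 4.97 to 2.85 (-2.11). Adap2 (-3.06) and Plek (-1.66) also fell. The integrin chains Itgam (-0.45), Itgb2 (-0.24) and Itgb1 (-0.04) stayed within 2-fold.

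Of RANK signalling genes, those that rose were mostly adaptors and regulators of NF-kappaB. Of 26 members 9 rose and none fell (median 0.43). Traf1, an adaptor that NF-kappaB itself induces, went from 0.77 to 5.41 (4.64). Tnfaip3, an NF-kappaB inhibitor, went from 1.44 to 3.24 (1.80), Nfkb2 from 3.47 to 5.01 (1.53) and Nfkbia from 5.39 to 6.67 (1.27). Tnfrsf11a, which codes for RANK, was 3.98 in macrophages and 5.03 in osteoclasts (1.05). Tnfrsf11b, the decoy receptor of RANKL, was above background in osteoclasts alone, at -3.46 (at least 2.10). Traf6, the main adaptor of RANK, was at 0.80, and the kinases Chuk, Ikbkb and Map3k14 at 0.22, -0.30 and -0.46. Of 17 measured genes of the costimulatory ITAM pathway Oscar alone rose, from -2.14 to 4.04 (6.19). Trem2 (7.61 and 6.19, -1.42) and the adaptor Fcer1g (7.76 and 6.73, -1.03) fell, and Tyrobp and Syk lay at -0.18 and 0.19.

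Of 27 listed transcription factors of the osteoclast 10 rose, 4 fell and 13 stayed within 2-fold, with a median of 0.35. Jdp2, an AP-1 partner that osteoclasts need, went from 0.51 to 6.55 (6.05). Ppargc1b, the coactivator of mitochondrial biogenesis, went from -0.08 to 4.05 (4.13), and Fosl2, an AP-1 subunit, from 1.14 to 5.09 (3.95). Nfatc1, the central factor, was at 0.54 and 3.87 (3.33) with its brighter probe and at 2.02 and 2.31 (0.29) with the other. The AP-1 subunits Fosl1 (1.77) and Fos (1.49) and the oncogene Myc (2.18) rose, whereas Junb (0.84), Jund (0.58) and Jun (-0.21) stayed within 2-fold. Mitf was at 0.40. The falling members were Batf3 (-2.94), Cebpa (-2.05), Fosb (-1.33) and Nfatc2 (-1.32).

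Of 23 genes listed here as repressors of osteoclast formation 8 fell and 1 rose, with a median of -0.80. Membership followed the list, and a repressor role of its members, Irf4 among them, was not tested. Maf went from 5.08 to 0.80 (-4.28), Irf4 from -0.79 to -5.05 (-4.26) and Irf8, which holds back NFATc1, from 4.65 to 1.07 (-3.58). All of them are factors of the macrophage or dendritic state. Prdm1, which represses some of these genes, rose from 0.67 to 3.03 (2.36). Zeb1, a repressor best known from epithelia, was the member that rose (-4.26 and -1.15, 3.11). Bcl6, a target of Prdm1, was at -0.85, and Rbpj, the Notch effector, at -0.57. Egr1 fell from 0.05 to -1.61 (-1.66), against a rise of 1.35 in the wild type.

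AP-1 binds the letters TGANTCA, where N is any base. These were searched on both strands in the 250 bases before the start of each gene in a RefSeq table of mouse promoters of assembly GRCm38.p6, among 8 motifs. The array files name another build, and none of their coordinates are used. The motif was present in 7.82% of all 27025 promoters and in 6.27% of the 12376 belonging to genes measured here. It was present in 34 of 214 promoters (15.9%) of genes at least 8-fold higher in osteoclasts and in 11 of 135 (8.15%) of genes at least 8-fold lower. By list it was in 1 of 14 promoters (7.14%) of the resorption genes, which rose, and in 5 of 27 (18.5%) and 2 of 10 (20%) of the type I interferon and GTPase lists, which fell. The windows below show the motif in capitals, 5′ to 3′ along the gene's strand, for 6 genes at least 8-fold higher, to show how it sits in them. These 6 were chosen after their values were seen, and a match describes letters and no binding. Rufy4 lies at chr1:74125474-74125533 (+), F2r at chr13:95618637-95618696 (-), Sphk1 at chr11:116531761-116531820 (+), Slc6a12 at chr6:121342490-121342549 (+), Tnfrsf9 at chr4:150927939-150927998 (+) and Slc12a5 at chr2:164960658-164960717 (+).
Rufy4: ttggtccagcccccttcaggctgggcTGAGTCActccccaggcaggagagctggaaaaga
F2r: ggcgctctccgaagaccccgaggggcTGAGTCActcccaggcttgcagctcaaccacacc
Sphk1: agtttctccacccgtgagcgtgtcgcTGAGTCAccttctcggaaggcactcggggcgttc
Slc6a12: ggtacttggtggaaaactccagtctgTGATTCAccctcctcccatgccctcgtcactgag
Tnfrsf9: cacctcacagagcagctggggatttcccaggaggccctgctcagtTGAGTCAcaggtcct
Slc12a5: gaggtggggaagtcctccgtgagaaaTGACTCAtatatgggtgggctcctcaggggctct

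Most mitochondrial genes lay above 0. Of 21 enzymes of the TCA cycle 14 rose and 1 fell, with a median of 1.26. Idh3a, a subunit of the NAD-dependent isocitrate dehydrogenase, went from 2.72 to 5.12 (2.40), Pdhb of pyruvate dehydrogenase from 3.85 to 5.77 (1.92) and Mdh2, the mitochondrial malate dehydrogenase, from 6.06 to 7.92 (1.85). The cytosolic, NADP-dependent Idh1 was the member that fell, from 1.39 to -0.15 (-1.54). All 36 measured subunits of complex I lay above 0 and 12 of them rose, with a median of 0.92. For complexes II to IV with cytochrome c 12 of 23 rose (median 1.02), and for ATP synthase 5 of 17 (median 0.94), and no member of either fell. Cyc1 went from 4.43 to 6.62 (2.20), Cycs, which codes for cytochrome c, from 4.57 to 6.45 (1.88), and Ndufab1 from 0.81 to 2.57 (1.76). The nuclear-coded subunits of complex IV ran from 0.52 for Cox6a1 to 0.97 for Cox7a2, so none of the 9 measured here passed 2-fold. This range holds the medians of complex I and ATP synthase, so it does not set complex IV apart from them.

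Genes that build mitochondria were also measured. Of 68 mitochondrial ribosomal proteins 22 rose and all 68 lay above 0 under this scaling, with a median of 0.84, and Mrps6 (2.86 and 5.16, 2.30) and Mrps35 (1.37 and 3.31, 1.94) were highest. Of 27 factors of biogenesis, import and carriers 14 rose, 3 lay below 0 and none fell (median 1.02). Those that rose included Ppargc1b, given above, the chaperonin Hspd1 (1.77) and the import pore Tomm40 (1.49). The transcription factor Tfam was at 0.49 and Nrf1 at 0.06. The 36 cytosolic ribosomal proteins (median 0.34, and 0.11 with the authors' values) and 30 proteasome subunits (0.41, and 0.25) had no member past 2-fold. With arrays centred on their median the medians of complex I, ATP synthase and the mitochondrial ribosome were 1.09, 1.11 and 1.01, and with spike-in controls set equal those of the biogenesis factors and of complexes II to IV were 0.95 and 0.96.

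Of 24 members of glycolysis 4 rose and 2 fell, with a median of 0.32 that ran from 0.18 to 0.49 over the other settings. Ldhb, the lactate dehydrogenase form of oxidative tissues, went from 1.33 to 4.87 (3.54) and the monocarboxylate carrier Slc16a1 from 0.04 to 2.07 (2.03). Ldha (0.41), Gapdh (0.19) and Pkm (0.20) stayed within 2-fold, and Pfkfb4 fell by 1.79 on the log2 scale. Of 18 measured hypoxia-inducible genes Adm alone rose (1.55) and P4ha2 alone fell (-2.03), with a median of 0.01.

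Of 31 measured genes of serine, one-carbon and amino acid metabolism 17 rose, 13 stayed within 2-fold and 1 fell, with a median of 1.07. Bcat1, the cytosolic branched-chain transaminase, was above background in osteoclasts alone (-1.65, at least 3.92). Chac1, which cleaves glutathione, went from -1.51 to 1.91 (3.42), the glutamine carrier Slc1a5 from 2.44 to 5.21 (2.77) and asparagine synthetase Asns from 2.29 to 4.54 (2.24). The mitochondrial one-carbon enzymes Shmt2 (1.62 and 3.41, 1.78) and Mthfd2 (0.70 and 2.19, 1.50) also rose. Phgdh, which starts serine synthesis, had 1.54 on both arrays (0.00), and Slc7a7, an exporter of cationic amino acids, fell from 3.75 to 1.90 (-1.85). Atf4, which drives many of these genes, was at 0.91, and Ddit3 and Trib3 at -0.40 and -0.44.

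Of 24 measured genes of cholesterol synthesis and uptake 7 fell and none rose, with a median of -0.75. Stard4, a sterol carrier, went from 1.81 to 0.32 (-1.49), Dhcr7 from 0.56 to -0.87 (-1.43), Tm7sf2 from 1.93 to 0.60 (-1.33) and Fdft1 from 3.23 to 1.94 (-1.29). Of 18 genes of cholesterol efflux and LXR targets 9 fell and 1 rose, with a median of -1.003. Apoe, the apolipoprotein that macrophages secrete, went from 7.72 to 4.42 (-3.31), its neighbour Apoc1 from -0.98 to -4.82 (-3.84), and Ch25h, which makes 25-hydroxycholesterol, from 1.94 to -1.37 (-3.31). Nr1h3, which codes for the receptor LXR alpha itself, rose from 1.999 to 3.08 (1.08). Of 31 genes of fatty acid metabolism 3 rose and 5 fell (median 0.09). The desaturase Fads2 (-2.88), the fatty acid receptor Cd36 (4.64 and 1.88, -2.76) and Fabp4 (-1.94) fell, and Acsl1 rose by 1.63.

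Interferon-stimulated genes fell as a group. Of 36 measured genes of the type I interferon response 29 fell, none rose and none lay above 0, with a median of -1.55. Zbp1, a sensor of Z-form nucleic acids, went from 1.71 to -1.09 (-2.81), Ifit3 from 3.15 to 0.62 (-2.53), Oasl2 from 4.27 to 1.76 (-2.52) and Ifit2 from 1.41 to -1.03 (-2.43). Factors that carry the interferon signal to the genome fell with them. Stat2 went from 4.10 to 1.96 (-2.14) and Irf9 from 3.45 to 2.35 (-1.10). The receptor chains Ifnar1 and Ifnar2 were at -0.18 and -0.69. Of 17 genes for interferon-inducible GTPases, which defend against intracellular pathogens, and their regulator Irf1, 12 fell and none rose, with a median of -1.59. Gm4951 went from 1.31 to -2.94 (-4.25) and Iigp1 from 0.99 to -3.13 (-4.12). In the wild type the medians of the 2 lists were -1.47 and -1.20.

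The response element bound by the STAT and IRF factors was searched as GAAA, any 2 bases and GAAA on both strands in the same 250 bases. Of all promoters 3.46% held it, and of those of genes measured here 3.36%. It was present in 13 of the 27 promoters found for the type I interferon list (48.1%) and in 8 of the 10 found for the GTPase list (80%). Among the promoters of genes at least 8-fold lower it was present in 8 of 135 (5.93%), and of genes at least 8-fold higher in 3 of 214 (1.40%). Of the 14 promoters of the resorption list 2 held it (14.3%). The windows below show it in capitals, in either orientation, for Ifit3 (chr19:34583382-34583441, +), Ifi205 (chr1:174031855-174031914, -), Stat2 (chr10:128270251-128270310, +), Slfn8 (chr11:83020824-83020883, -), Trim30a (chr7:104465195-104465254, -), Tgtp2 (chr11:49064248-49064307, -), Irgm2 (chr11:58214888-58214947, +), Gbp2 (chr3:142620579-142620638, +) and Igtp (chr11:58199496-58199555, +). They show the shared letters in members whose differences ran from -1.49 for Igtp to -2.53 for Ifit3. The members shown, of both lists, were chosen after their values were seen. Some members with larger falls, such as Zbp1, Gm4951 and Iigp1, are not shown.
Ifit3: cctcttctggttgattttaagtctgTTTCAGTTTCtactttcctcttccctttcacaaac
Ifi205: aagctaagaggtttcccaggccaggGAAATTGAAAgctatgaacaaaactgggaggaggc
Stat2: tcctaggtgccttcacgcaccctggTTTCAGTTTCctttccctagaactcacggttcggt
Slfn8: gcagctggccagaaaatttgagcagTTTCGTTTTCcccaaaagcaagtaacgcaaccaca
Trim30a: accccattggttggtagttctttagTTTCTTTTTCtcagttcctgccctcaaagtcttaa
Tgtp2: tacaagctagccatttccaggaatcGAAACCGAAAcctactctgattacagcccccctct
Irgm2: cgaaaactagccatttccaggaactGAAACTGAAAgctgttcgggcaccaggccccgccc
Gbp2: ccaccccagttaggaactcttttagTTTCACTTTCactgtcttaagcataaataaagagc
Igtp: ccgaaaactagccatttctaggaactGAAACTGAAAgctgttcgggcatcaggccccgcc

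The remaining motifs were described in the same sets. GAGGAAGT, letters bound by PU.1, was present in 2.79% of all promoters and in 3.03% of those of genes measured here. It was in 11 of 135 (8.15%) of genes at least 8-fold lower and in 5 of 214 (2.34%) of genes at least 8-fold higher. The E-box CACGTG was present in 6.86% of all promoters and in 9.12% of those of genes measured. Its shares in genes at least 8-fold higher and lower, 4.67% and 8.15%, were both below the share of genes measured. The M-box TCATGTG was present in 3.72%, 2.7%, 4.67% and 4.44% of the same 4 sets. GGAAAA, the core bound by NFAT, was present in 22.9% of all promoters and in 21.9% of those of genes measured. It was in 24.3% of genes at least 8-fold higher and in 46 of 135 (34.1%) of genes at least 8-fold lower. The sterol response element TCACNCCAC was present in 1.22% of all promoters, in 1.23% of those measured and in 1 of 16 of the cholesterol synthesis list. TGACCTTG, bound by ERR receptors, was present in 1.51% of all promoters, in 1.28% of those measured and in 2 of 59 of the mitochondrial ribosomal list. The interferon element can overlap the NFAT core, since both contain GAAA.

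Sensors and messengers of innate immunity fell broadly. Of 27 Toll-like receptors, related sensors and adaptors 16 fell and none rose, with a median of -1.53. Ly86, the partner of the receptor Cd180, went from 5.07 to 0.86 (-4.21), Tlr7 from 3.62 to 0.98 (-2.64), Tlr1 from 2.15 to -0.24 (-2.39) and Tlr13 from 5.83 to 3.53 (-2.30). The members that fell also included the inhibitory kinase Irak3 (1.69 and -0.10, -1.79) and the coreceptor Cd14 (4.63 and 3.50, -1.13). The shared adaptor Myd88 (-0.48) and the kinase Irak1 (0.33) were among the 11 that stayed within 2-fold. Of 19 measured chemokines 16 fell and 1 rose, with a median of -2.16. Pf4 went from 7.71 to 3.87 (-3.84), Ppbp from -1.67 to -5.005 (-3.33), Ccl24 from -0.11 to -3.34 (-3.22) and Ccl4 from 3.56 to 0.40 (-3.16). Cxcl10, although induced by interferons, rose from 2.94 to 4.22 (1.28), and Ccl9, which osteoclasts are known to make, was at 7.04 and 7.85 (0.81). In the wild type Cxcl10 was at -0.44 and Ppbp at -0.03.

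Receptors for chemokines mostly fell. Of 16 measured 11 fell and 2 rose, with a median of -1.52. Ccr1, a receptor of Ccl9, went from -5.37 to -0.99 (4.37), from near the lowest level above background, and Ccr3 from -1.77 to 1.23 (3.00). Ccr2, the receptor that guides monocytes, fell from 1.27 to -2.58 (-3.85), Ccrl2 from 0.51 to -2.72 (-3.23) and C3ar1 from 4.11 to 1.66 (-2.45). Of 30 measured interleukin and TNF cytokines and receptors 16 fell and 3 rose, with a median of -1.15 (-0.72 with no filter on dim probes). Those that rose were Tnfrsf9, the costimulatory receptor 4-1BB, above background in osteoclasts alone (1.55, at least 7.11), Il1rn, the interleukin-1 receptor antagonist (0.22 and 3.58, 3.36), and Il1r1, the receptor it blocks (-2.27 in osteoclasts, at least 3.29). Il21r (1.43 and -1.35, -2.77), Il10ra (3.81 and 1.12, -2.69) and Il1b (-2.80 and -5.17, -2.37) fell. The wild-type bound for Il1r1 was 0.93.

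Of 30 macrophage identity genes, which code for receptors and other proteins, 24 fell and 1 rose, with a median of -2.28 (-2.36 to -2.04 over the other settings). Siglec1, the sialic acid receptor of resident macrophages, went from 2.64 to -2.97 (-5.61), F13a1, a coagulation factor chain, from 5.40 to 0.14 (-5.26) and Marco, a scavenger receptor, from 4.81 to -0.03 (-4.84). Others stayed high on both arrays. Csf1r was at 8.09 and 7.71, Cd68 at 7.89 and 7.84 (-0.06), Lgals3 at 7.67 and 7.69 (0.02) and Itgam at 5.31 and 4.86. Spi1, which codes for PU.1, rose from 0.40 to 1.45 (1.06).

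Uptake receptors fell across families. Of 12 measured scavenger and mannose receptors 8 fell and none rose, with a median of -2.25. Mrc1, the mannose receptor, went from 6.06 to 1.36 (-4.69) and Stab1 from 6.55 to 2.68 (-3.87). Of 18 measured genes of apoptotic cell clearance 12 fell and 1 rose (median -2.25). The receptor Mertk went from 2.48 to -1.74 (-4.22), its bridging ligand Gas6 from 7.02 to 3.00 (-4.02) and Axl from 2.61 to 0.21 (-2.40), while Mfge8 was at 0.52. Of 9 Fc receptor genes 7 fell and 1 rose. Fcgr1, the high-affinity IgG receptor, went from 3.27 to -1.12 (-4.39) and Fcgr3 from 4.75 to 1.43 (-3.32). The inhibitory receptor Fcgr2b fell from 2.42 to 1.16 (-1.27), against a rise of 1.28 in the wild type. Fcrl1 rose from 0.12 to 1.47 (1.35).

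Smaller receptor families were uneven. Of 30 measured C-type lectins, Siglecs and Cd300 receptors 11 fell and 2 rose, with a median of -0.78. Cd33 (1.70 and -1.63, -3.33) and Clec10a (3.00 and 0.17, -2.83) fell, and Siglech (6.66 and 6.67, 0.02) and Clec5a (-0.03) did not pass 2-fold. Treml2 rose with its brighter probe (1.83) and fell with the other (-2.78), so its direction is not settled. Siglecf, dim on both arrays, rose from -4.29 to -3.18 (1.12) with its brighter probe, and a second probe gave 0.50. Of 8 measured Ms4a genes 5 fell, from Ms4a6b (2.26 and -2.07, -4.33) to Ms4a6d (-2.04), while Ms4a4c was at 6.48 and 6.26. Of 13 measured genes of alternative activation 9 fell and 1 rose, with a median of -1.82 that ran from -1.07 with no filter on dim probes to -2.67 over genes above background on both arrays. Arg1, the arginase, was above background in osteoclasts alone, at -4.42 (at least 1.14).

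Of 21 measured genes of MHC class I and peptide loading 3 fell and none rose, a share near the 12.2% of all genes that fell. With a median of -0.67, 18 of the 21 lay below 0. H2-M3 went from 2.91 to 0.58 (-2.33), Nlrc5, the regulator of class I genes, from 2.18 to 0.76 (-1.42), H2-K1 from 7.62 to 6.89 (-0.73) and B2m from 7.28 to 6.95 (-0.33). Of 16 measured genes of MHC class II and costimulation 5 fell and 1 rose, with a median of -0.52, against 0.34 in the wild type. Icosl and Cd40 (-0.11 and -2.53, -2.42) fell furthest, and Ifi30, a lysosomal thiol reductase, rose from 4.12 to 5.68 (1.56). H2-Ab1 was at 3.88 and 3.31 (-0.57) and the invariant chain Cd74 at 4.22 and 4.09 (-0.13).

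Secreted proteases, complement and their inhibitors also changed. Of 24 measured complement and coagulation genes 13 fell and 2 rose, with a median of -1.20. The 3 chains of C1q fell together, C1qa from 5.09 to 0.27 (-4.82), C1qc from 6.67 to 2.40 (-4.27) and C1qb from 6.20 to 1.99 (-4.21). Serpinf1, an antiangiogenic serpin, fell by at least 3.21 on the log2 scale. F3, tissue factor, rose by at least 4.14, to -1.43. C3, the central complement protein, was at 4.52 and 5.21 (0.69). Of 15 measured serpins and cystatins 6 rose and 2 fell, with a median of 0.85 (0.21 with no filter on dim probes and 0.44 with the normexp background correction). Serpine2, an inhibitor of thrombin and plasminogen activators, went from -0.65 to 4.34 (4.99), against 0.90 in the wild type. Cst7, a cystatin of lysosomes, went from -3.14 to 0.01 (3.15), and Serpinb1a, an inhibitor of neutrophil proteases, from -0.19 to 2.69 (2.88). Serpind1 (at least 8.36) and the thrombin receptor F2r (at least 7.91), given above, were in neither list and rose more than any of their members.

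Growth factors and guidance cues differed in both directions. Of 24 measured angiogenic factors and receptors 7 rose and 10 fell. Hbegf, an EGF receptor ligand, was above background in osteoclasts alone (0.62, at least 6.18). Vegfc went from -1.23 to 3.85 (5.09) and Pgf from -4.83 to -0.24 (4.59), whereas Ang, angiogenin (1.25 and -2.82, -4.07), Pdgfc (0.52 and -3.34, -3.86) and Nrp1 (5.85 and 2.42, -3.43) fell. Vegfa was at 0.25 with its brightest probe, and its other probes gave 1.02, 0.17 and -0.26. Igf1, a growth factor stored in bone, fell from 6.39 to 3.68 (-2.71). Il34, an alternative ligand of Csf1r, was above background in osteoclasts alone (-0.13, at least 5.41), and Csf1, which codes for M-CSF, fell from -1.76 to -3.18 (-1.42). Of 25 measured genes of TGF-beta and BMP signalling 3 rose and 2 fell, a share no higher than that of all genes (23.2%). Ltbp1, which stores latent TGF-beta, rose by at least 5.41 to -0.16, with 0.34 in the wild type, and the receptor Tgfbr1 rose from 3.40 to 4.70 (1.29), with -0.14 in the wild type. The medians of the angiogenic, colony-stimulating, semaphorin, sphingosine-1-phosphate, Notch, Bcl2 and hypoxia lists took both signs under the other settings, so these lists have no direction.

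Of 24 measured semaphorins, plexins and ephrins 10 rose and 7 fell. Sema3d, a secreted semaphorin, was at -0.20 in osteoclasts (at least 5.37), and Efnb2, the ephrin through which osteoclasts contact osteoblasts, at -0.70 (at least 4.79). Sema4d, which osteoclasts use to restrain osteoblasts, rose from 3.92 to 5.12 (1.21). Plxnc1, a receptor of Sema7a, fell from 3.04 to -1.04 (-4.08), while Sema7a itself rose. Of 13 measured Notch genes 4 rose, among them Notch1 (-0.40 and 1.13, 1.53) and its ligand Jag1 (-0.46 and 1.03, 1.49), and Jag2 fell (-3.27 and -5.27, -2.003). In the wild type Jag1 was at -0.01.

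Genes of lipid and nucleotide mediators also differed in both directions. Sphk1, which makes sphingosine-1-phosphate, went from -4.39 to 3.44 (7.84), and Spns2, which exports it, from -4.93 to 3.80 (8.73). The receptor S1pr1 fell from 1.76 to -2.15 (-3.92), and Sphk2 was at 0.05 and the lyase Sgpl1 at -0.28. Of the 11 measured genes of this list 3 rose and 2 fell. Akr1c18, a ketosteroid reductase also active on prostaglandins, went from -3.42 to 4.59 (8.01). Of 22 measured prostaglandin and leukotriene genes 2 rose and 11 fell, among them Hpgd, the receptors Ptger2 (-0.41 and -3.94, -3.53) and Ptger3 (not above background in osteoclasts) and Alox5ap (6.96 and 5.25, -1.71). Of 18 measured purinergic receptors and ectonucleotidases 3 rose and 8 fell, with a median of -0.52 that was -1.74 over genes above background on both arrays and -2.17 with the authors' values. P2ry13 (1.18 and -3.36, -4.54), the ectonucleotidase Entpd1 (3.27 and -1.16, -4.43) and P2ry12 (0.17 and -4.21, -4.38) fell most, and Entpd3 rose by at least 2.47. The ATP-gated channel P2rx5, given above at 6.64, was not in this list and rose more than any of its members.

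Iron, redox and metal genes changed in part. Of 21 measured genes of iron and heme handling 3 rose and 8 fell, with a median of -0.54 (-0.17 with normexp). Tfrc, the transferrin receptor, rose from 2.21 to 4.55 (2.34) and Steap4, a metal reductase, by at least 4.86 to -0.70, while ferroportin and Hfe (3.43 and 0.57, -2.85) fell. The ferritins Fth1 (8.07 and 8.09, 0.02) and Ftl1 (0.09) stayed level within 2-fold. Of 30 Nrf2 targets and glutathione genes 1 rose and 8 fell, among the latter Gpx3 (-0.43 and -4.31, -3.89), Mgst1 (5.34 and 2.07, -3.28), Hmox1 (6.33 and 4.40, -1.93) and Nfe2l2, which codes for Nrf2 (-1.13). Of 12 metallothioneins and zinc transporters 3 rose and 1 fell. Mt3 went from -0.90 to 4.20 (5.10), Mt2 from 3.28 to 6.11 (2.82) and Mt1 from 6.18 to 7.19 (1.01). The zinc transporter Slc39a8 fell from 0.52 to -0.82 (-1.34).

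Few cell cycle and replication genes passed 2-fold. Of 32 cell cycle genes none rose and 3 fell, and of 29 replication genes none rose and E2f2 fell (-1.27). Ccnd2, a D-type cyclin, went from 1.52 to -2.32 (-3.84), the inhibitor Cdkn1a from 5.05 to 3.51 (-1.54) and Ccnd3 from 4.65 to 3.55 (-1.10). The proliferation marker Mki67 was at 5.10 and 5.23 (0.13) and Top2a at 0.23. Survival genes of the Bcl2 family were divided, with 4 of 20 rising and 5 falling. Bok (-3.07 and 0.43, 3.50) and Pmaip1 (0.61 and 3.01, 2.40), both of which promote cell death, rose, and the survival genes Bcl2l1 (5.33 and 3.20, -2.13) and Bcl2 (0.06 and -1.98, -2.04) fell. Bcl2l11, which codes for Bim, was at 0.04 with its brightest probe and between 0.17 and 1.63 with 3 others.

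Immediate early genes were divided too, with 8 of 28 rising and 8 falling. Besides those given above, Dusp2 (0.40 and 2.18, 1.78) and Nr4a2 (-2.03 and -0.49, 1.54) rose, and Btg2 (1.12 and -2.10, -3.22), Atf3 (4.48 and 2.12, -2.36) and Ier3 (2.26 and 0.04, -2.22) fell. Of 26 genes of the unfolded protein response and chaperones 3 rose, the heat shock genes Hspa1b (-2.39 and 1.39, 3.78), Hspa1a (-0.24 and 2.89, 3.13) and Hsp90aa1 (1.12). Hspa1a and Hspa1b are near-identical copies and their signals may be shared. Hspa5, the main chaperone of the endoplasmic reticulum, was at 0.07 and Xbp1 at 0.03.

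The wild-type arrays are a separate pair and share no array with the one described. Of 1576 genes that rose in LysM-St18flox and had a difference in both genotypes, 673 (42.7%) also rose in the wild type, 865 lay on the same side under 2-fold and 38 lay below 0. Of 1814 that fell, 932 (51.4%) also fell in the wild type and 8 rose there. Seen from the other side, 83.6% of the genes that rose in the wild type and 88% of those that fell did so in LysM-St18flox. Of the 58 lists, 48 had medians of the same sign in both genotypes, and in 40 of these the LysM-St18flox median lay farther from 0. The wild-type macrophage and osteoclast arrays were dimmer, with 75th percentile signals of 636 and 770 against 1159 and 1062 in LysM-St18flox. Their lowest levels above background were higher, at -5.32 and -4.89 against -5.56 and -5.50. What part this brightness has in the sizes was not tested. With 1 array per group the difference between the genotypes was not tested.

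**Figure D5:**
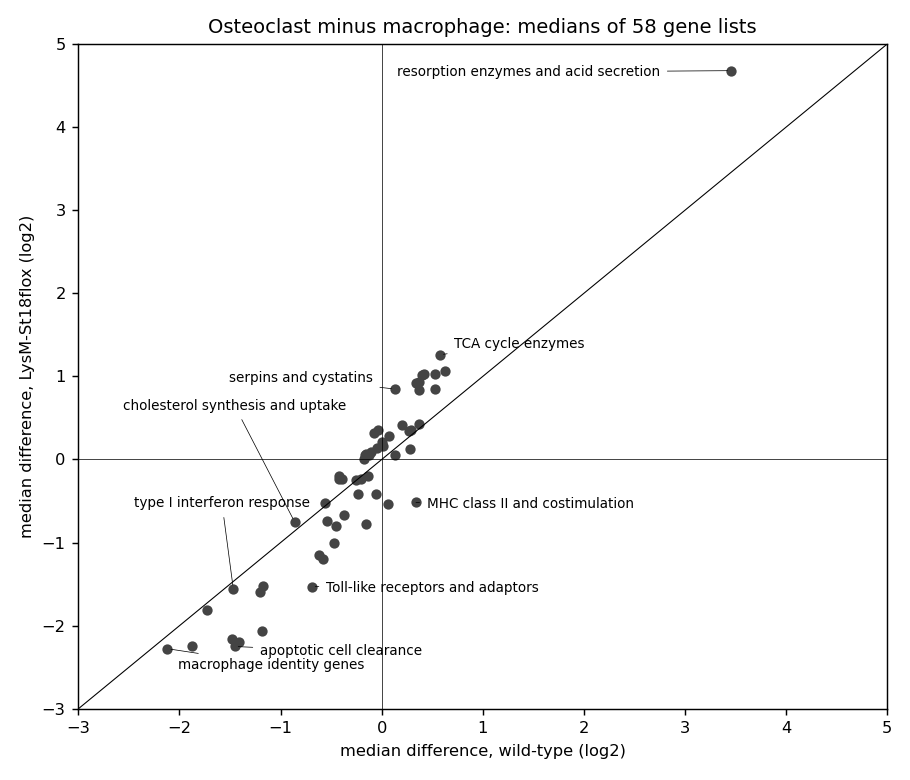
Median difference between osteoclasts and macrophages (log2) of 58 gene lists in the wild type (horizontal) and in LysM-St18flox (vertical), with the line of equality. The resorption list lies at 3.46 and 4.68, Toll-like receptors at -0.69 and -1.53, and MHC class II and costimulation on opposite sides of 0, at 0.34 and -0.52.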

How the data were processed

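RNA from each of the 4 cultures was hybridised to a 1-colour Agilent mouse array, and the deposited files hold each spot's signal as an intensity and its flags, and the submitters' processing notes name Agilent Feature Extraction 11.0.1.1 as the software. Background had been subtracted within each array, per the file headers, and no scaling between arrays had been done. The authors' deposited value table holds log2 values whose sorted columns are nearly equal across arrays, with the method not given in the sources used here.

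Here, control and outlier spots were left out, spots of a probe were averaged, and log2 of the processed signal was set relative to each array's 75th percentile. Of 56575 probes, 32977 (58.3%) were named through their RefSeq accession with a gene table of assembly GRCm38.p6, giving 22903 genes. For the 7893 genes with several probes the probe with the highest mean signal was used. Probes well above background on either array were kept, and below background the array's lowest signal above background gave the bound.

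No test was run, since each group has 1 array. Genes were named by rule: St18 and Lyz2, the 20 largest differences each way, the 10 largest bounds each way, the leading and defining members of each list, and genes past 2-fold in opposite directions in the 2 genotypes. The members and gene lists were chosen with earlier results of these data known. Alternatives were other scalings, normexp background correction (offset 50, on median spot and background signals, since mean signals were not used here), no dim filter or a stricter one, the authors' values, the median over a gene's probes, and spike-in controls set equal, the last chosen after seeing the data. The steps were tested on simulated data. Python 3.11.15 with numpy 2.4.6, pandas 2.3.3 and matplotlib 3.10.9, and R 4.3.3 with limma 3.58.1, were used. The number of arrays limits the precision.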

Additional observations from a re-analysis of the deposited data

Results flagged for a closer look

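The 8 genes that fell past 2-fold in LysM-St18flox osteoclasts and rose past 2-fold in wild-type osteoclasts were Egr1, Fcgr2b, Hbb-y, Klk1b11, Tmem150b, Plekha6, Dnah2 and Rbbp8nl. With 1 array per group the difference between the genotypes was not tested. Egr1, an immediate early transcription factor, stood at -1.66 and 1.35, and Fcgr2b, the inhibitory receptor for IgG, at -1.27 and 1.28. Klk1b11, a kallikrein, stood at -1.20 and 1.03. Hbb-y, an embryonic globin, was above background on only 1 array of each genotype. The bound of its difference was -2.68 in LysM-St18flox, and it was at least 1.23 in the wild type.

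The other 4 were dim or close to 2-fold. Tmem150b stood at -1.38 and at least 1.05, and its LysM-St18flox difference was -0.57 with normexp and -0.35 with the authors' values. Plekha6 was at -1.13, a bound, and at least 1.78, with -0.95 when arrays were centred on their median and -0.73 with normexp. Dnah2, a dynein chain, was at -1.03 and at least 1.57, with -0.86 and -0.74 under the same 2 settings. Rbbp8nl was at -1.03 and 3.64, with -0.86 and -0.74 under these and -0.81 with the authors' values.

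The list of MHC class II and costimulation genes had a median of -0.52 in LysM-St18flox, against 0.34 for the wild-type arrays, which was not tested. Probes that no table used here names were outside the comparison of genes. Of 13625 such probes above background on either array, 938 were at least 2-fold higher in osteoclasts and 1369 at least 2-fold lower, 16.9% in all.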

How the results depend on the processing

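The number of gene lists with a median at least 2-fold higher was 6, and it was 11 with arrays centred on their median, 3 with the 75th percentile taken over probes above background on both arrays, 3 with normexp, 2 with the authors' values and 3 with spike-in controls set equal, a setting chosen after seeing the data. Several list medians lay close to 2-fold. Of all called genes 47.2% were higher, and 59.2% with arrays centred on their median. With normexp 1389 genes rose and 1395 fell. Over 58 lists and 8 alternatives 437 of 464 medians stayed on the same side of the 2-fold limits. Among medians under 2-fold, 20 changed sign, and they belong to 7 lists. A check of single genes covered 70: St18, Lyz2, the largest differences and bounds each way, and genes past 2-fold in opposite directions between the genotypes. Leading and defining members of the lists entered only where they also met those rules. Of 510 differences of the 70 genes, 500 stayed on the same side of these limits and 0 changed sign. Most of the 70 were chosen for large differences, so a stable sign was nearly fixed beforehand and says little about smaller differences. Treml2, not among the 70, was at -0.48 as the median over its probes. Genes near background have uncertain sizes. No paired analysis was possible because each group has 1 array.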

Other observations

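Gene families outside the lists were described by symbol, and were chosen after their values were seen. Of 267 measured solute carriers 38 rose and 46 fell, 31.5% against 23.2% of all genes. Slc18a1, a vesicular monoamine transporter, went from -3.71 to 2.43 (6.14), and Slc14a2, a urea transporter, was above background in osteoclasts alone at 0.58 (at least 6.15). Type IV collagens, which build basement membranes, rose, with Col4a6 at 2.98, Col4a1 at 1.96, Col4a5 at 1.64 and Col4a2 at 1.55. Myo1d, an unconventional myosin, went from 0.66 to 6.41 (5.75). Rab38, a GTPase of lysosome-related organelles, went from -2.53 to 3.43 (5.96). Of 66 measured genes with symbols starting in Rab 16 fell and 6 rose, 33.3% against 23.2% of all genes. This count by symbol takes in genes named for partners of Rab proteins, such as Rab3il1 (-3.78) and Rab3ip (1.90). Of 30 kinesins 6 fell and none rose (20% against the same 23.2%), with Kif5c at -4.39, and Tubb6, a beta tubulin, went from 4.52 to 7.14 (2.62). Of 14 measured genes with symbols starting in Rgs, for regulators of G protein signalling, 6 fell and Rgs16 alone rose, 50% against 23.2% of all genes. Rgs18 fell most (2.37 and -0.32, -2.69). The 6 include Rgs7bp (-2.65), by its name a binding protein of such a regulator.

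Of 17 aminoacyl-tRNA synthetases 5 rose and none fell (29.4% against 23.2% of all genes, median 0.86), among them Iars (1.51) and Gars (1.39). Of 11 measured small nucleolar RNAs 8 rose (72.7%, against 10.9% of all genes), with Snora74a at 2.56, Snora81 at 2.39 and Snora78 at 2.14. Several were dim, and macrophage levels ran from -3.99 for Snora23 to 3.13 for Snora73a. The 4 probes for RNase P RNA, whose copies are near-identical, lay between 1.45 for Rprl1 and 1.78 for Rprl2. Of 979 long noncoding RNAs 75 rose and 126 fell, 20.5% against 23.2% of all genes. Among them 5430425K12Rik went from -5.47 to -1.38 (4.09) and AW112010, an interferon-inducible transcript, from 1.23 to -2.41 (-3.64).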
